A study of Homo sapiens with 12 samples.

Results

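The 49 genes described here are a list of interferon-stimulated genes, matched by gene symbol to the 60671 genes counted by RNA sequencing in LS180 cells. All 49 were in the count table and 47 could be tested. Members are set by name, without a threshold on a measured value, but the list was drawn up with earlier results of these data known and its question singles out IFI6. The rank and p-values of IFI6 are therefore not those of a gene chosen without regard to the data.

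LS180 is an established human colorectal cancer line that makes intestinal mucus proteins. SOX9 is a transcription factor found in stem cells at the base of intestinal crypts, and the study asks, per its title, about a SOX9 program that holds back intestinal differentiation. In 3 derivative lines, doxycycline switches on GFP, wild-type SOX9 or M303, a truncated SOX9. Each line was sequenced with no doxycycline and 24 h after 0.5 µg/ml was added, which gave 6 groups of 2 libraries. All groups share the parental line. The uninduced groups carry the same construct as their induced partner, and the induced GFP group is the control for doxycycline. Each construct sat in its own line, so construct and line cannot be told apart, and whether a line is 1 clone is not given in the sources used here. No source says that the duplicates are separate cultures. The p-values therefore measure the spread between these samples alone, and that spread may be technical.

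Interferons are secreted signals of virus infection. Type I interferons bind a receptor made of IFNAR1 and IFNAR2, whose kinases JAK1 and TYK2 activate a complex that holds STAT2 and IRF9. The complex binds a GAAA repeat, the interferon-stimulated response element, in the promoters of antiviral genes. Interferon gamma acts through a palindrome of TTC and GAA called the gamma-activated site. In the gut, epithelial cells respond to interferon against enteric viruses, and many of the same genes keep a low tonic level without infection.

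The promoters of the 4 genes that changed on SOX9 induction are shown because they differ in matches to the letters searched below. The sequences are from RefSeq on GRCh38.p14, run 5′ to 3′ on the gene's strand, and cover 250 bases before to 50 bases after the start. Capitals mark the core of the interferon-stimulated response element on either strand, searched as GAAA, any 2 bases and GAAA again. The spans are chr1:27672143-27672442 on the minus strand for IFI6, chr14:94110486-94110785 on the plus strand for IFI27, chr1:1013247-1013546 on the plus strand for ISG15 and chr12:112906712-112907011 on the plus strand for OAS1.
IFI6: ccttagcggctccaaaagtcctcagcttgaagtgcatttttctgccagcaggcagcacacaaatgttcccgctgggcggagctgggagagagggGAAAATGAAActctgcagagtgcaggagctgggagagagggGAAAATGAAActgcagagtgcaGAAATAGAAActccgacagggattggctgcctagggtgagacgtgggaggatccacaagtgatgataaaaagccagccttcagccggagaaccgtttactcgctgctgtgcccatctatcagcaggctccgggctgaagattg
IFI27: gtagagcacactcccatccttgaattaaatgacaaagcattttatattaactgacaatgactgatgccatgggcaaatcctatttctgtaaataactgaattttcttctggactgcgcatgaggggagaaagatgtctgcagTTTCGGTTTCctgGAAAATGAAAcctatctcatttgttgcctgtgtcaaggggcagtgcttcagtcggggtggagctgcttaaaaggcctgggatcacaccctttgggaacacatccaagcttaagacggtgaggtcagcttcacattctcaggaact
ISG15: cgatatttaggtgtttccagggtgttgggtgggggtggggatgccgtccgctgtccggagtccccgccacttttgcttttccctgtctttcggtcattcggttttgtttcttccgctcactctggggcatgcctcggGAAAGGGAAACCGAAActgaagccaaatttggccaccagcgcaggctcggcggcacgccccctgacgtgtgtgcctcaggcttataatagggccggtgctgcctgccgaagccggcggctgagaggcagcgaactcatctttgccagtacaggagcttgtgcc
OAS1: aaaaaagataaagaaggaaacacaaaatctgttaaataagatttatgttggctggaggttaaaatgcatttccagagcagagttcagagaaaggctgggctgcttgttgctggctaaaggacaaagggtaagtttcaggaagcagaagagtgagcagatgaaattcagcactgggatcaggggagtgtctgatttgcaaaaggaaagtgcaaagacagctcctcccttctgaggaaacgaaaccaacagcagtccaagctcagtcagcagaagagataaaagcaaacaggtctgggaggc
IFI6 held this core 3 times, with first bases at -156, -115 and -93 from the start. IFI27 held it at -108 on the minus strand and at -95 on the plus strand. ISG15 had overlapping matches at -113 and -107. The OAS1 stretch has no capitals, which says only that these letters are not in this window. It does hold gaaacgaaa, where the GAAA repeats lie closer together than the search allowed. OAS1 is therefore not shown to lack a response element.

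Promoter entries were found for 41 of the 49 genes, and 24 of these 41 (58.5%) held the core on either strand, against 996 of 27305 promoters of all genes (3.65%). The gamma-activated core TTCNNNGAA, which reads the same on both strands, was in 8 of 41 (19.5%) against 7.88% of all promoters. It was at -101 in IFI27, where it overlaps both response-element matches, and at -168 in OAS1. The letters ACAAAG or ACAATG, a core bound by SOX factors, were in 8 of 41 (19.5%) on either strand against 24.6% of all promoters. IFI27 held them at -219 and -197, OAS1 at -130, and the IFI6 and ISG15 windows did not hold them. The 10 letters GAAAATGAAA, picked from the IFI6 window after the sequences were read, stood in 3 of 41 promoters against 69 of 27305 (0.253%). The 3 were IFI6, where the match was fixed by that choice, IFI27 and IFIT3. The IFIT3 group mean was 1.14 CPM before and 0.78 after SOX9 induction, without a call. These matches are letters in a window, and binding was not measured here.

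**Figure D1:**
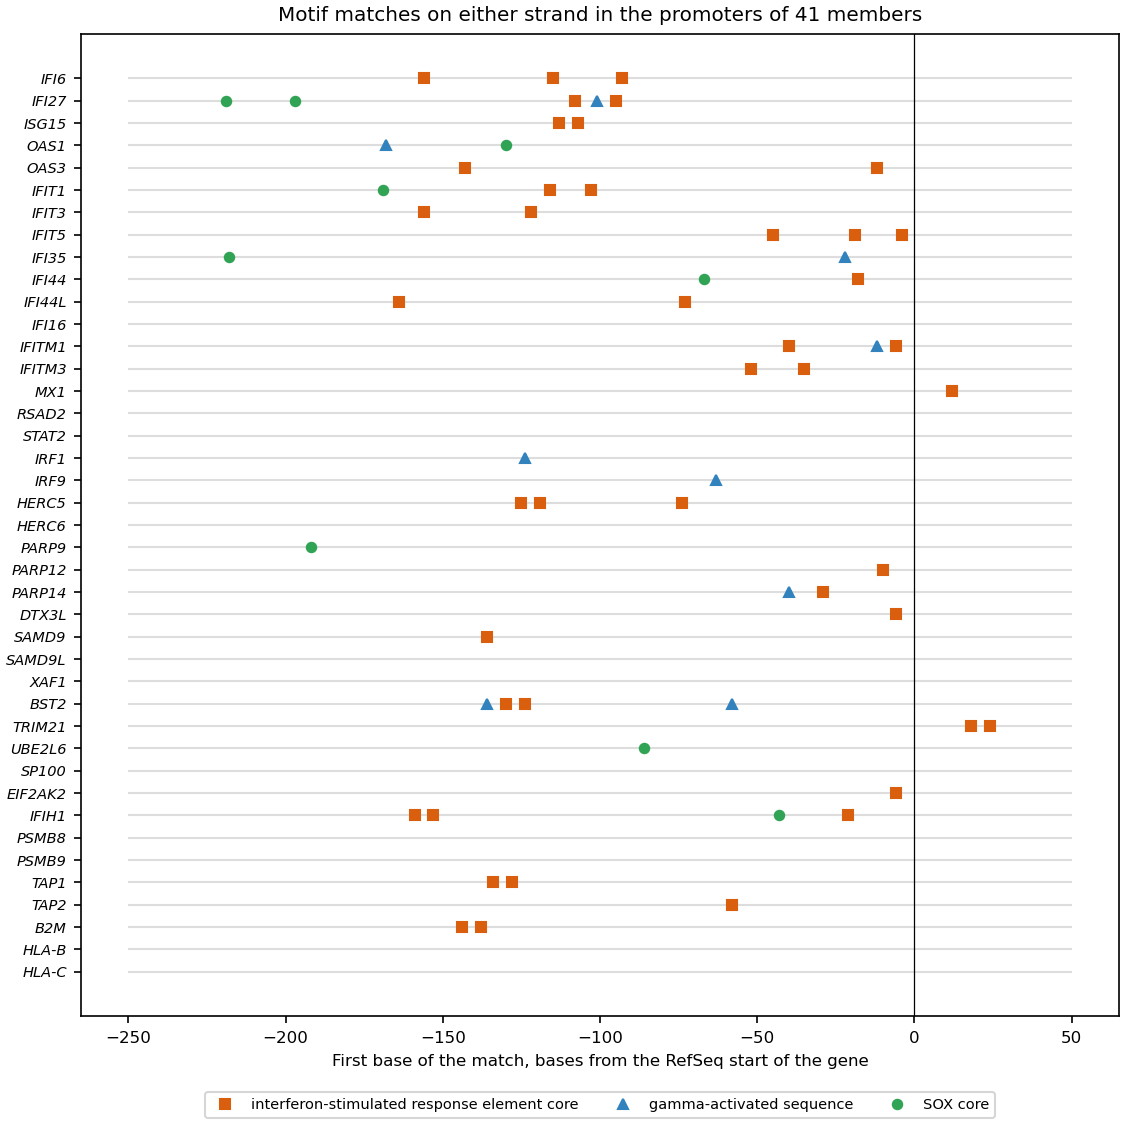
Positions of the response-element core (GAAA, any 2 bases, GAAA), of TTCNNNGAA and of the SOX-core letters (ACAAAG or ACAATG) in the promoters of members, by distance from the start in bases. IFI6 has 3 response-element matches and no SOX core, whereas OAS1 has no match to the response-element letters as searched.

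The libraries held 31012775 to 48529770 counts. SOX9 itself served as the check of the labels, since its count can pool endogenous and construct transcripts. Its group mean was 369 CPM (counts scaled to library size) in the SOX9 line without doxycycline and 736 with it. The M303 line went from 383 to 843 and the GFP line from 396 to 388. The log2 fold change was 1.00 (SE 0.07, edgeR adjusted p = 4.11e-08) for SOX9 and 1.14 for M303 (adjusted p = 2.84e-08). Because the count rose in both lines, this check does not tell the wild-type label from the M303 label. The epithelial marker EPCAM was at 1011 to 1053 CPM in the 12 libraries, and CD3E, a T cell gene, was at 0. The summed CPM of 9 epithelial markers was 10670 to 10700 in the induced SOX9 libraries and 11520 to 13080 in the other 10. That of 3 goblet cell markers was 139 to 146 against 232 to 324. These markers move with the SOX9 induction results below, and their part in them was not tested. In bulk RNA, fewer cells of a type and less RNA per cell cannot be told apart.

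The interferon-stimulated genes spanned a wide range of levels in LS180. By mean CPM over the 12 libraries, 1 of the 49 was below 0.1, 11 lay between 0.1 and 1, 9 between 1 and 10, 24 between 10 and 100, and 4 at 100 or above. Per length, the highest were IFITM3 at 164 CPM per kb, HLA-C at 86.4, ISG15 at 58.2, B2M at 39.9 and IFITM1 at 37.2. IFI6 averaged 7.26 CPM per kb. The 2 untested genes were IFI44L, with at most 4 counts in a library, and MX2, with at most 16.

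SOX9 induction raised IFI6 and IFI27 and lowered ISG15 and OAS1, and no other member passed the test. These 4 of 47 tested genes (8.51%) compare with 541 of 18219 genes tested (2.97%). By direction, 2 of 47 were higher (4.26%, against 1.81% of all genes) and 2 were lower (4.26%, against 1.16%). Calls needed an adjusted p (Benjamini-Hochberg, over all genes tested) under 0.05. At an unadjusted p under 0.05 there were 8 of 47 (17%), against 13.8% of all genes. The median log2 fold change of the 47 was -0.02 and that of all genes 0.01, with 20 members above 0 and 27 below.

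IFI6 (ENSG00000126709, chr1:27666064-27672198 on the minus strand of hg38) encodes a small mitochondrial protein of the ISG12 family that opposes apoptosis. Its CPM was 4.34 and 2.96 in the SOX9 line without doxycycline and 18.7 and 18.1 with it. In the GFP line it was 2.83 and 3.11 without and 4.65 and 3.97 with doxycycline. In the M303 line it was 3.07 and 4.16 without and 3.83 and 3.68 with doxycycline. The induced SOX9 libraries were thus the only 2 of 12 above 5 CPM, and they stood well clear of the other 10, which held 86 to 176 counts against 921 and 577. The log2 fold change on SOX9 induction was 2.33 (SE 0.22, adjusted p = 6.53e-07), a 5.04-fold rise with a 95% interval of 1.88 to 2.79 on the log2 scale.

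The rise of IFI6 differed from both other inductions. For M303 induction its log2 value was 0.05 (SE 0.22, adjusted p = 1.00). GFP induction gave 0.54 (SE 0.23, unadjusted p = 0.0287, adjusted p = 1.00), with the induced GFP libraries above the uninduced ones. The difference between SOX9 and GFP induction was 1.80 (SE 0.31, adjusted p = 0.00346) and that between SOX9 and M303 induction 2.28 (SE 0.31, adjusted p = 3.95e-04). Without any 1 library, the SOX9 value stayed between 2.09 and 2.63 and the largest adjusted p was 6.73e-05.

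IFI27 (ENSG00000165949, chr14:94104836-94116698 on the plus strand) is a mitochondrial and nuclear-envelope protein of the same ISG12 family and one of the most inducible interferon targets in blood and epithelium. Its CPM was 20.3 and 16.4 before and 30.4 and 31.1 after SOX9 induction. It was 17.7 and 14 before and 14.6 and 20.7 after GFP induction. It was 18.6 in both uninduced M303 libraries and 19.6 and 18.7 after M303 induction. The induced SOX9 pair lay above all other libraries. The log2 fold change was 0.75 (SE 0.15, adjusted p = 0.00652) for SOX9, 0.04 (SE 0.15) for M303 and 0.16 (SE 0.16) for GFP. The difference from GFP induction was 0.59 (SE 0.22, adjusted p = 0.366) and that from M303 induction 0.70 (SE 0.22, adjusted p = 0.292), neither past the threshold. The SOX9 call was lost without the second uninduced SOX9 library (adjusted p = 0.134), without the first induced one (0.0635) and without the second (0.0892).

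ISG15 (ENSG00000187608, chr1:1001138-1014540 on the plus strand) encodes a ubiquitin-like protein that is attached to viral and host proteins. Its CPM was 52.3 and 56.9 before and 40.1 and 38.2 after SOX9 induction. It was 53.4 and 47.8 before and 46.9 and 52.1 after GFP induction. It was 57.6 and 55.4 before and 50.2 and 54.2 after M303 induction. The induced SOX9 pair was the lowest of the 12. ISG15 fell by 0.48 on the log2 scale (SE 0.09, adjusted p = 0.00492) on SOX9 induction, against log2 fold changes of -0.11 (SE 0.09) for M303 and -0.03 (SE 0.09) for GFP. The difference from GFP induction was -0.45 (SE 0.13, adjusted p = 0.183) and that from M303 induction -0.36 (SE 0.13, adjusted p = 0.501). The call was lost without the second uninduced SOX9 library (adjusted p = 0.0807) or the second induced one (0.0959).

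OAS1 (ENSG00000089127, chr12:112906783-112933222 on the plus strand) makes oligoadenylates on double-stranded RNA, which switch on an RNA-degrading enzyme. Its CPM was 34.7 and 35.4 before and 23.6 and 24.8 after SOX9 induction. It was 29.8 and 30.5 before and 31.8 and 31.3 after GFP induction. It was 30.1 and 31 before and 31.9 and 29.2 after M303 induction. The uninduced SOX9 pair was the highest of the 12 and the induced pair the lowest. OAS1 fell by 0.54 (SE 0.10, adjusted p = 0.00260) on the log2 scale on SOX9 induction, against log2 fold changes of -0.00 (SE 0.10) for M303 and 0.06 (SE 0.10) for GFP. The difference from GFP induction was -0.60 (SE 0.14, adjusted p = 0.0419), and that from M303 induction -0.54 (SE 0.14, adjusted p = 0.143). The SOX9 call was lost without the first induced SOX9 library (adjusted p = 0.0687). The call of the difference from GFP held in 1 of 12 fits that each left out 1 library, and the adjusted p reached 0.230. ISG15 and OAS1 overlap antisense genes that hold 6 counts each in all 12 libraries, while IFI6 and IFI27 overlap none.

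**Figure D2:**
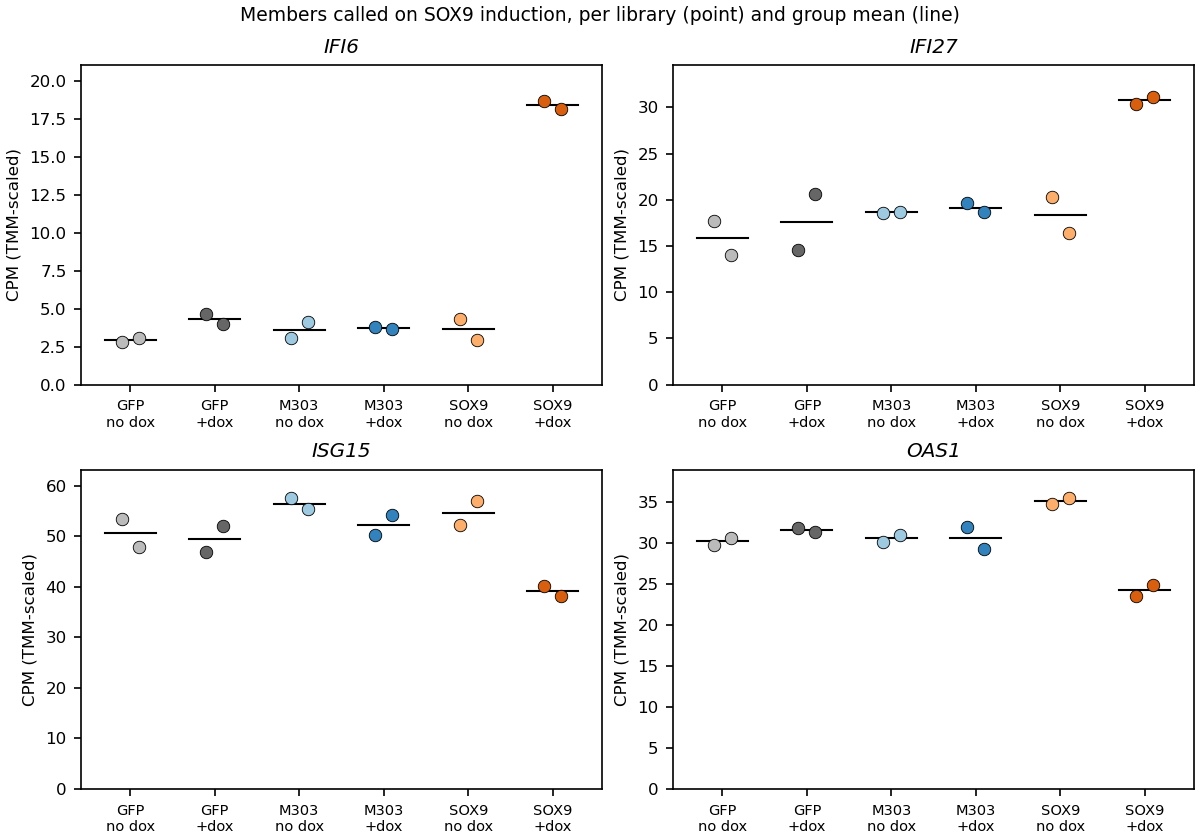
CPM of IFI6, IFI27, ISG15 and OAS1 in each of the 12 libraries by group, with points for libraries and lines for group means. In the induced SOX9 group IFI6 is at 18.7 and 18.1 CPM, above all other libraries, and ISG15 and OAS1 are at their lowest.

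IFI6 did not move with most of the list, though IFI27 was also called higher, with a log2 fold change of 0.75. Among the 47 tested members it ranked first on SOX9 induction, and among 13147 genes with a mean of at least 1 CPM it ranked 10. The other 46 members had a median of -0.03, and 30 of them lay within 0.25 of 0 on the log2 scale. The quartiles of the 47 members were -0.17 and 0.14, and those of all genes tested were -0.15 and 0.21. The CPM summed over the 48 other members was 1517 to 1651 over all 12 libraries, and 1651 and 1639 in the induced SOX9 libraries. The 4 members at 100 CPM or above weigh most in this sum, so it says little about the lower ones. IFI6 made up 0.180% to 0.306% of the summed member CPM in the other 10 libraries and 1.12% and 1.09% in the induced SOX9 pair. Of the 37 members with a mean of at least 1 CPM, 27 (73%) had a 95% interval on SOX9 induction wholly within 1.5-fold either way, against 70.4% of all genes at that level.

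The other members of the ISG15 pathway gave no call on SOX9 induction. With 2.97% of all genes called, groups as small as this and those below would often hold no call. UBE2L6, the conjugating enzyme, had a log2 fold change of 0.18. HERC5, the main ligase, had 0.25, and HERC6, a related ligase, had -0.05. USP18, which removes ISG15 and dampens the interferon receptor, had -0.17. All 4 lay closer to 0 than ISG15 did.

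Among the sensors of double-stranded RNA, OAS1 was the only 1 of 6 called, against 2.97% of all genes. Log2 fold changes of the family ran from -0.54 in OAS1 to 0.07 in EIF2AK2, the kinase PKR that stops translation. OAS3, a larger relative of OAS1, had -0.01, and IFIH1, the cytoplasmic RNA sensor MDA5, had -0.18.

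The IFIT proteins bind foreign RNA ends, and none of 4 was called, against 2.97% of all genes. IFIT5, the only member of the family above 1 CPM, had 0.01. IFIT1 had -1.55 (adjusted p = 0.285), from at most 44 counts in a library. The IFITM proteins block virus entry and BST2 tethers budding virions, and 0 of these 4 was called, against the same share. IFITM3 had -0.02 and IFITM1 0.00. IFITM2 had 0.82 (SE 0.37, adjusted p = 0.320) but overlaps IFITM1 on the same strand and shares near-identical sequence with its relatives, so its count is uncertain. MX1, a GTPase that traps viral particles, had -0.07.

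The transcription factors of the pathway were not called. STAT2, a subunit of the complex that binds the response element, had CPM of 32.7 and 27.5 before and 39.9 and 34.6 after SOX9 induction. Its log2 fold change was 0.31 (SE 0.12, adjusted p = 0.237). IRF7, the amplifier of interferon production, had -0.17, and IRF9 had -0.81 from at most 31 counts in a library. IRF9 overlaps a gene without a symbol on the same strand, with 243 counts over all libraries against 215 for IRF9. The IRF9 count is therefore uncertain. PARP9, PARP12, PARP14 and DTX3L, the ADP-ribosylation group, kept within -0.16 and 0.06. PARP9 and DTX3L overlap on opposite strands, and the recorded counting has no strand option.

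Of 7 antigen presentation genes none was called, against 2.97% of all genes. Their log2 fold changes ran from -0.29 to 0.16. TAP1, which carries peptides into the endoplasmic reticulum, had the lowest p of the uncalled members. Its CPM was 68.5 and 77.5 before and 59.9 and 59.1 after SOX9 induction, with no overlap. Its log2 fold change was -0.29 (SE 0.09, adjusted p = 0.0782). It passed with DESeq2 (adjusted p = 0.0358) and without the first uninduced SOX9 library (0.0401). B2M, the light chain of class I molecules, had 0.16, and the immunoproteasome subunits PSMB8 and PSMB9 had -0.01 and 0.14. HLA-B and HLA-C overlap on the same strand and are alike in sequence, so their counts are uncertain. The other effectors (IFI16, SP100, TRIM21, TRIM22, SAMD9, SAMD9L, XAF1, IFI35 and IFI44) ran from -0.71 to 1.05, with both ends in genes below 1 CPM.

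**Figure D3:**
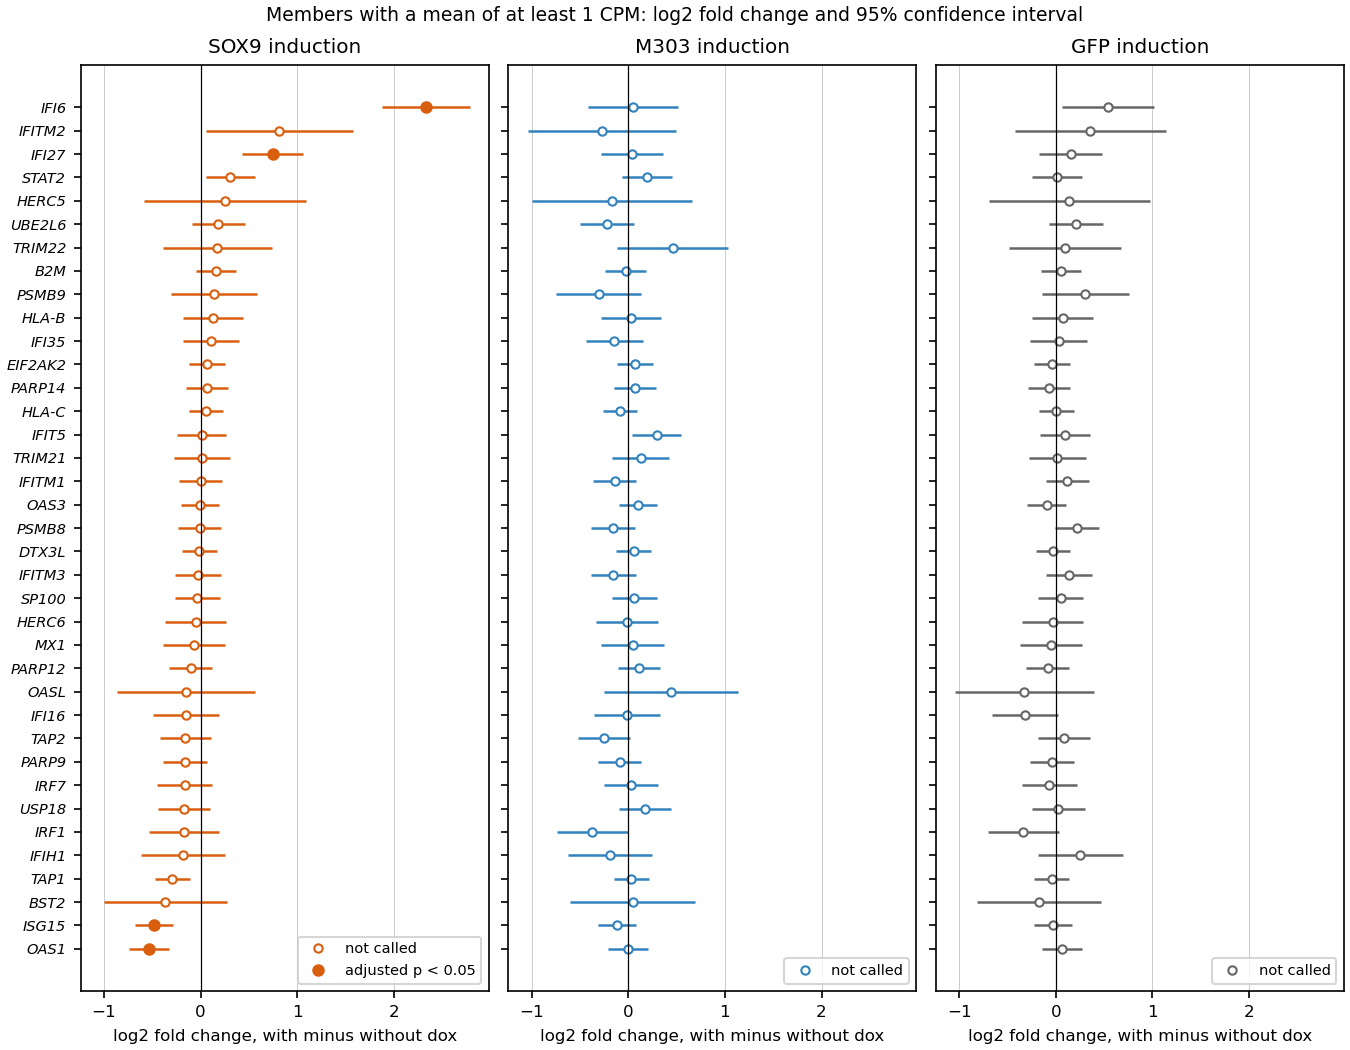
Log2 fold changes, with against without doxycycline, of the 37 members with a mean of at least 1 CPM on induction of SOX9, M303 and GFP. Bars are 95% confidence intervals, filled points passed the test, and IFI6 stands apart at 2.33 on SOX9 induction.

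M303 induction changed none of the 47 members by edgeR, against 1 of 18219 genes (0.00549%), and DESeq2 called none of the members either. At an unadjusted p under 0.05 there were 2 of 47 (4.26%), against 3.63% of all genes. They were IRF1 and IFIT5, and in neither did the adjusted p approach the threshold (both 1.00). Among members above 1 CPM the highest value was that of TRIM22, an antiviral ubiquitin ligase. Its CPM was 4.21 and 5.52 before and 7.80 and 5.58 after induction, and its log2 fold change was 0.46 (SE 0.27, adjusted p = 1.00). The lowest was that of IRF1, a transcription factor of the interferon gamma response. Its CPM was 9.66 and 10.2 before and 7.14 and 8.28 after induction, and its log2 fold change was -0.37 (SE 0.18, adjusted p = 1.00). Of the 37 members above 1 CPM, 29 (78.4%) had an interval within 1.5-fold, against 75% of all genes at that level.

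GFP induction, the doxycycline control, changed none of the 47 members by edgeR, against 0 of 18219 genes (0%), and DESeq2 called none of the members. At an unadjusted p under 0.05 there were 4 of 47 (8.51%), against 3.18% of all genes. They were IFI6, IFIT1, OAS2 and RSAD2, the last 3 of which were below 1 CPM in the mean over the 12 libraries. OAS2 was lower after induction, with a group mean of 0.51 CPM before and 0.16 after, and the others were higher. RSAD2, the antiviral enzyme viperin, was at 1 and 2 counts in the uninduced GFP libraries and at 16 and 13 in the induced ones. It reached 27 counts in an uninduced M303 library. RSAD2 overlaps CMPK2 on the opposite strand, with 172 counts over all libraries against 5624 for CMPK2, so its count is uncertain. IFI6 had the highest value above 1 CPM, given above. IRF1 had the lowest, with CPM of 10.8 and 9.46 before and 8.83 and 7.17 after induction. Its log2 fold change was -0.34 (SE 0.18, adjusted p = 1.00). IRF1 overlaps IRF1-AS1 on the opposite strand. Its libraries did not overlap between groups in the M303 and GFP inductions, lower in both, and overlapped in that of SOX9, at -0.17 (SE 0.18).

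Tests of the difference between inductions called few members. For SOX9 against GFP induction, IFI6 was higher and OAS1 lower, 2 of 47. Of all 18219 genes 163 were called (0.895%), 0.631% higher and 0.263% lower, and 6 members (12.8%) against 9.01% of genes had an unadjusted p under 0.05. For SOX9 against M303 induction, IFI6 alone was called, as higher, against 89 genes (0.489%, with 0.357% higher). Here 7 members (14.9%) against 6.99% of genes had an unadjusted p under 0.05. For M303 against GFP induction no member was called by edgeR or DESeq2, against 1 gene (0.00549%), and 4 of 47 (8.51%) against 3.94% of genes had an unadjusted p under 0.05. The SOX9-against-GFP and M303-against-GFP tests share the GFP libraries, and both tests with SOX9 share the SOX9 libraries. These counts over all genes moved with single libraries. For SOX9 against GFP, 87 genes were called without the second induced SOX9 library, 98 without the first, 107 without the second uninduced GFP library and 212 without the first. For SOX9 against M303, 52 were called without the second induced SOX9 library and 55 without the second induced M303 library. For M303 against GFP, 12 were called without the first uninduced GFP library.

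Groups that do not overlap are common with 2 libraries each. On SOX9 induction 7 members were higher without overlap (14.9%, against 23.2% of all genes) and 12 lower (25.5%, against 21.5%). On M303 induction the counts were 10 (21.3%, against 17.1%) and 11 (23.4%, against 16.8%). On GFP induction they were 6 (12.8%, against 13.5%) and 3 (6.38%, against 13.8%).

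Before doxycycline, no member differed between lines by edgeR or DESeq2. The shares of all genes called were 0% for the SOX9 against the GFP line, 0.00549% for M303 against GFP and 0% for SOX9 against M303. The first 2 shares depend on 1 library, since without the first uninduced GFP library 27 genes were called for SOX9 against GFP, where there had been 0, and 46 for M303 against GFP, where there had been 1. In the SOX9 line 36 of 47 members were above the GFP line, with a median log2 difference of 0.13 against 0.00 for all genes. Without the second uninduced GFP library that median was 0.06 with 30 members above 0. In the M303 line 29 of 47 were above the GFP line, with a median of 0.13, which was 0.05 without the second uninduced GFP library and 0.04 without the second uninduced M303 library. Over the 37 members with a mean of at least 1 CPM the M303 median was 0.02, with 22 above 0, and the SOX9 median was 0.11, with 27 above 0. The median of SOX9 minus M303 was 0.01, and it was -0.02 with the filter of a mean of 1 CPM. At an unadjusted p under 0.05 there were 3 of 47 members (6.38%) for SOX9 against GFP (OAS1, RSAD2 and PSMB8), where the share of all genes was 4.75%. There were 6 of 47 (12.8%) for M303 against GFP, against 6.09% of all genes, and 0 of 47 (0%) for SOX9 against M303, against 2.79%. PSMB8 read 42.7 and 34.4 CPM in the uninduced GFP libraries, 48.4 and 46.9 in the SOX9 line and 46.2 and 50.4 in the M303 line, and the GFP pair was lowest.

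The pattern of IFI6 over the 6 groups was compared with that of 12706 other genes with a symbol and a mean of at least 1 CPM. Likeness was the Euclidean distance between the 6 values of log2(group mean CPM + 0.25), each centred on its gene's own mean. The nearest were CYB5R2, a cytochrome b5 reductase (distance 0.31), GMPR, a purine enzyme (0.45), MELTF, an iron-binding surface protein (0.46), NTRK2, the receptor of the growth factor BDNF (0.47), and MGAM2, a maltase-like gene (0.53). None is on the interferon list. The nearest members were IFI27 (1.39, rank 102) and IFITM2 (1.53, rank 172). A gene with the same level in all groups would be at 2.10. Many members were farther than that, from OAS3 (2.11, rank 6656) to ISG15 (2.49, rank 12330). OAS1 (2.44, rank 12214) and the uncalled OASL (2.46, rank 12260) were among them. The 5 nearest had log2 fold changes of 1.75 to 2.31 on SOX9 induction, which follows from how they were picked. IFI27L1 and IFI27L2, relatives of IFI27 looked up after the values were seen, had 0.24 (adjusted p = 0.798) and 0.24 (adjusted p = 0.843).

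**Figure D4:**
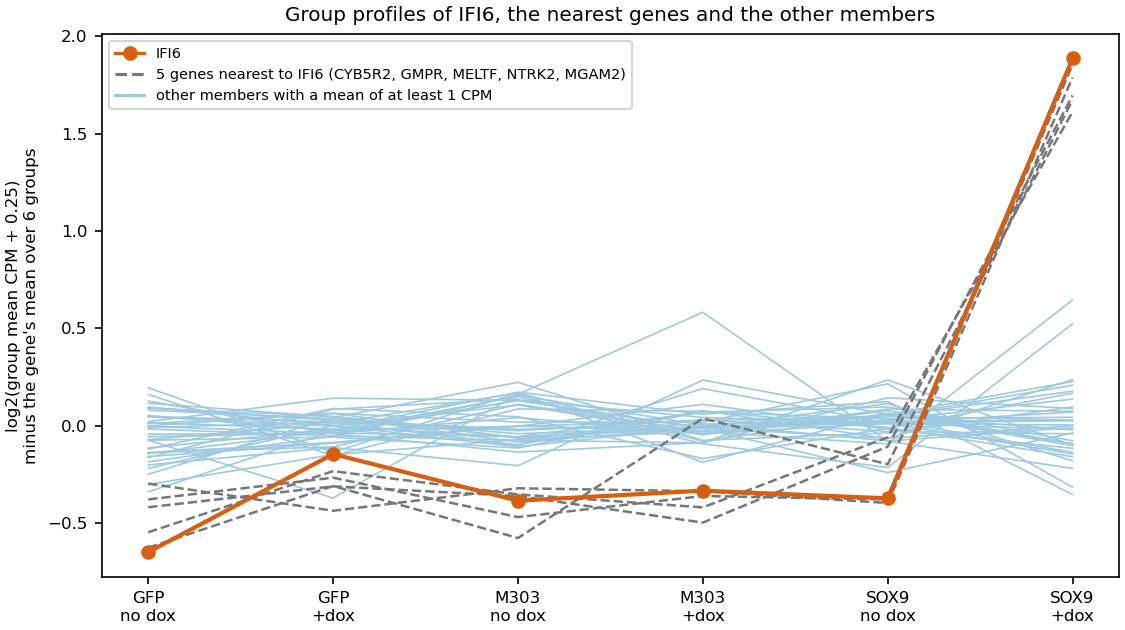
Log2(group mean CPM + 0.25), minus the gene's own mean over the 6 groups, for IFI6 (thick line), its 5 nearest genes (dashed) and the other members with a mean of at least 1 CPM (thin lines). IFI6 and its nearest genes rise in the induced SOX9 group, above all other members drawn.

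The signalling genes upstream gave no call in the main test. Of 40 listed genes of interferon production and signalling, 30 were tested and 0 were called in any of the 9 comparisons by edgeR. Of all genes, 2.97% were called on SOX9 induction by edgeR. DESeq2 called 2 of 26 on SOX9 induction (7.69%), where it called 757 of 14452 genes in all. The 2 were IFNGR2, a receptor chain for interferon gamma, and IRF8, a transcription factor. By edgeR, 5 of the 30 had an unadjusted p under 0.05 (16.7%, against 13.8% of all genes). On SOX9 induction the receptor chain IFNAR1 had a log2 fold change of 0.08 and its partner IFNAR2 had -0.41, from at most 36 counts in a library. The kinases JAK1 and TYK2 had 0.09 and -0.08. IRF3, which switches on interferon genes, had -0.20 (adjusted p = 0.344). Of 9 interferon genes, 6 had no count in any library, and IFNB1, IFNA1 and IFNE had 2, 1 and 10 counts over all 12.

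A further list of 54 interferon-response genes, none on the list of 49, had 51 tested and 1 called on SOX9 induction (1.96%), against 2.97% of all genes called in either direction. It was CNP, a phosphodiesterase best known from myelin, with CPM of 116 and 129 before and 154 and 152 after. Its log2 fold change was 0.32 (SE 0.08, adjusted p = 0.0280). The call was lost in 4 of the 12 fits that each left out 1 library, where the adjusted p reached 0.230. The median of the 51 was -0.04, against 0.01 for all genes, and 7 had an unadjusted p under 0.05 (13.7%, against 13.8%).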

How the data were processed

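The deposited values are raw read counts per gene. STAR 2.7.0a and hg38 are named for the alignment, per the submitters' processing notes. Per the file headers, featureCounts 2.0.1 counted them on the Ensembl 101 annotation, with no recorded paired-end, strand or multi-mapping option, so mates count as reads, strands are pooled, and gene families may lose shared reads. Of 60671 genes, 42020 (69.3%) had a symbol.

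Counts were tested with edgeR 4.0.16 (limma 3.58.1, R 4.3.3): TMM factors, filterByExpr (18219 genes), robust quasi-likelihood F-test, 12 libraries in 1 model with 1 mean per group, 6 residual degrees of freedom, biological coefficient of variation 10.6%. Interactions tested differences between inductions. CPM and CPM per kb, from the deposited gene lengths, were computed here. DESeq2 1.42.0 and the fits of the closing section were alternatives. Scripts were tested on simulated data. Replicate numbers were not taken as pairs (closing section).

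Members and lists were chosen with earlier results of these data known. Full values went to IFI6, IFI27, ISG15, OAS1, other called members, and each induction's highest and lowest member with a mean of at least 1 CPM; genes called in 2 further lists, 6 fixed signalling genes, 1 of which is not reported here, and IFI6's 5 nearest genes were also named. Uncalled members were picked after their values were seen.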

Additional observations from a re-analysis of the deposited data

Results flagged for a closer look

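Responses that differed between inductions by an interaction test were those of 2 members. IFI6 responded to SOX9 induction by 1.80 more than to GFP induction on the log2 scale (SE 0.31, adjusted p = 0.00346) and by 2.28 more than to M303 induction (SE 0.31, adjusted p = 3.95e-04). OAS1 responded to SOX9 induction by -0.60 relative to GFP induction (SE 0.14, adjusted p = 0.0419). This OAS1 call was lost by edgeR with a replicate block in the model (adjusted p = 0.0767) and with only the compared groups (0.0919). Groups of 2 libraries are too small for a test of single outlying libraries.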

How the results depend on the processing

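No called gene changed direction. Medians near 0 did change sign: that of members between the uninduced SOX9 and M303 lines, 0.01, was -0.02 with the filter of a mean of 1 CPM and -0.00 with the replicate block, and that of all genes on SOX9 induction, 0.01, was -0.00 with RLE factors and -0.01 without the first induced SOX9 library. The 4 members called on SOX9 induction stayed called with size factors of the RLE type, with no filter, with a filter of a mean of 1 CPM, with the replicate block and with only the compared groups, and DESeq2 called these 4 and TAP1, 5 in all. Leaving out each library gave 2 to 5, with 2 without the second uninduced or either induced SOX9 library and 5 without the first uninduced one. IFI6 was called in each of these fits. Against GFP induction the 2 calls became 1 with the replicate block (OAS1 adjusted p = 0.0767), 1 with only the compared groups (0.0919) and 1 to 2 without 1 library. Against M303 induction the 1 call became 2 with no filter (IFI6 and IFI27) and 2 with DESeq2 (IFI6 and OAS1). The block, tried since groups share replicate numbers, changed no other member's call, and CNP lost its call (adjusted p = 0.0530). Same-numbered libraries deviated with correlations of -0.06, -0.08 and 0.06 within the GFP, M303 and SOX9 lines over 13147 genes, so the numbers were not taken as pairs. Between groups of different lines these correlations ran from -0.26 (induced GFP and uninduced SOX9) to 0.23 (induced M303 and uninduced SOX9). The alternatives for the 2 further lists were chosen after seeing the data. The signalling list went on SOX9 induction from 0 calls to 1 with the filter of a mean of 1 CPM (IFNGR2), 2 with DESeq2, and 0 to 1 without 1 library, and against GFP induction to 1 with DESeq2 (IRF8). The further list went on SOX9 induction from 1 call to 2 with no filter, 2 with the filter of a mean of 1 CPM and 2 with DESeq2 (CNP and TAPBP each time), 0 with the replicate block and 0 to 2 without 1 library. Of the members' promoters, 17 of 41 held the response-element core on the gene's own strand (41.5%, against 1.75% of all promoters), and 24 on either strand. The causes were not tested.

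Over all genes, the count called on SOX9 induction was 541 of 18219, 757 of 14452 with DESeq2 and 452 of 18219 with the replicate block. It ran from 210 to 667 without 1 library, at 210 without the second and 244 without the first induced SOX9 library and 281 without the second uninduced one. Counts against GFP induction ran from 87 to 212 for SOX9 (163 with all libraries) and from 1 to 12 for M303 (1), and those of SOX9 against M303 from 52 to 102 (89). With no filter, where 33013 genes were tested, they were 270, 11 and 147. M303 and GFP induction then gave 9 and 4 in place of 1 and 0 (2 and 2 with DESeq2, and 3 for M303 with only the compared groups). Between uninduced lines the 0 of SOX9 against GFP was 27 without the first uninduced GFP library, 17 with no filter, 2 with DESeq2 and 1 with only the compared groups. The 1 of M303 against GFP was 46 without that library, 22 with no filter and 0 without the second GFP or either M303 library. The 0 of SOX9 against M303 was 1 with DESeq2. With 2 libraries a group, members below 1 CPM had wide intervals, and a missing call there does not show an unchanged level.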
